A study of Mus musculus with 6 samples.

Results

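The interferon-stimulated genes described here are 46 genes, taken as the rows of the deposited count table whose symbol is 1 of 46 named symbols, out of 20071 Ensembl IDs in the table. Each member matched 1 ID, all 46 passed the expression filter that left 13733 genes for testing, and each held at least 49 counts in every library. The level of each gene is described for each library, then for Prrx1-Cre;Pcif1fl/fl against Pcif1fl/fl MSCs, and for Pcif1fl/fl replicate 3 against Pcif1fl/fl replicates 1 and 2.

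Interferons are secreted proteins that bind cell-surface receptors and, through the kinases JAK1 and TYK2, activate STAT2, which acts with IRF9 in the complex ISGF3. ISGF3 binds the interferon-stimulated response element (ISRE) near gene starts and raises the transcription of genes that restrict viruses, sense foreign nucleic acids or tune the pathway itself. Interferon-γ acts through the γ-activated site (GAS). Stromal cells and macrophages of the bone marrow both respond to interferons, and interferons are known to restrain osteoclast formation.

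MSCs, stromal cells that can form osteoblasts, were isolated from the femurs of mice at 6 weeks of age on a C57BL/6J background, and poly(A) RNA was sequenced after 7 days in osteogenic medium (dexamethasone at 100 nM, ascorbic acid at 50 µg/mL and β-glycerophosphate at 5 mM). The controls were Pcif1fl/fl littermates, which carry loxP sites around internal exons of Pcif1 and no Cre. The Prrx1-Cre;Pcif1fl/fl group, called CKO from here on as in the labels, carries the same alleles and a Cre recombinase driven by Prrx1 regulatory sequence, which is active in limb mesenchyme, so that cells of other lineages in the culture keep Pcif1. PCIF1 is the methyltransferase that makes m6Am on capped mRNAs that begin with adenosine. There were 3 libraries of each genotype, and the labels do not say whether they came from separate mice, so the p-values measure the spread between these libraries, which may be technical.

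The libraries held between 20258209 and 28227696 counts. Pcif1 was at 39.3 to 42.8 CPM (counts scaled to library size with TMM factors) in Pcif1fl/fl and 37.8 to 39.7 CPM in CKO MSCs, and counts per gene do not show the deleted exons. Xist was at 232 to 442 CPM in Pcif1fl/fl and 0.721 to 1.79 CPM in CKO libraries, and the Y-linked gene Ddx3y was at 48.4 to 62.2 and 99.0 to 104 CPM, so sex-linked expression and genotype cannot be told apart. Pcif1fl/fl replicate 3 stood apart: its chi-square per gene against the other Pcif1fl/fl libraries was 98.6 and 82.9, where all other pairs within a genotype gave 2.83 to 10.1. Mitochondrially encoded genes took 3.63% of its counts and 1.40% to 1.57% in the other 5 libraries, and 8 of 11 such genes tested were at least 2-fold above the other controls, with a median log2 ratio of 1.29. Of 16 macrophage markers all were counted in every library, with summed levels of 37046 to 39921 CPM in Pcif1fl/fl and 38379 to 41796 CPM in CKO libraries, beside 11579 to 19717 CPM for 12 mesenchymal stromal markers, although Lyz2 alone made up 21968 to 26218 CPM of the macrophage sum, so the RNA was not of stromal cells alone. In RNA from bulk cultures, fewer cells of a type and less RNA per cell cannot be told apart.

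Upstream sequence is shown for 6 members whose values are given in full or whose order among libraries differed: Ifit1, which was most raised in Pcif1fl/fl replicate 3; Oasl2, raised there without an ISRE core in its window; Isg15 and Oas1a, which passed the genotype test; Rsad2; and Bst2, which was lowest in Pcif1fl/fl replicate 3. Each run is the 150 bases before the RefSeq start on GRCm38.p6, written 5′ to 3′ on the gene's strand, with matches of the ISRE core on either strand in capitals. The GENCODE start of Ifit1 lies inside its window.
Ifit1, chr19:34640739-34640888, plus strand: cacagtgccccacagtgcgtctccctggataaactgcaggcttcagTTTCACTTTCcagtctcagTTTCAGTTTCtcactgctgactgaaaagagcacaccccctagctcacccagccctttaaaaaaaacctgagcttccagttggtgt
Oasl2, chr5:114896784-114896933, plus strand: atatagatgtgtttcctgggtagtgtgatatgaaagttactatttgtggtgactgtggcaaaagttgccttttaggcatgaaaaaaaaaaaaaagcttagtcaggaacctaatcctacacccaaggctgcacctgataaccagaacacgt
Isg15, chr4:156200819-156200968, minus strand: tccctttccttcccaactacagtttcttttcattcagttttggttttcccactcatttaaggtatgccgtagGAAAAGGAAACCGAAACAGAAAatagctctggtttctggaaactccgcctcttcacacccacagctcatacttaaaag
Oas1a, chr5:120907526-120907675, minus strand: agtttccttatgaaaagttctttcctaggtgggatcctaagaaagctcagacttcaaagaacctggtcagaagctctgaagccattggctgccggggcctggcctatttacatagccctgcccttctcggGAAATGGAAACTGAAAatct
Rsad2, chr12:26456453-26456602, minus strand: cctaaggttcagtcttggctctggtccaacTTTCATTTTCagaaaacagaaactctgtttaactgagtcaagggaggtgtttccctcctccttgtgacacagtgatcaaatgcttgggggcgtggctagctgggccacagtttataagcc
Bst2, chr8:71537473-71537622, minus strand: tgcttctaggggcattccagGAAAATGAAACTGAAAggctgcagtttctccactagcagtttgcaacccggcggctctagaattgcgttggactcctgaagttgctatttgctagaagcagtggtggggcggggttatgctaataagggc

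In these windows Isg15 held 3 overlapping matches of the ISRE core, Ifit1, Oas1a and Bst2 held 2 each, and Rsad2 held 1. The match nearest the start ended 4 bases before it in Oas1a, 56 in Isg15, 75 in Ifit1, 110 in Rsad2 and 114 in Bst2. The core was searched as GAAANNGAAA on both strands, in windows from 250 bases before to 50 bases after the start. RefSeq held windows for 34 of the 46 members, and 19 of these 34 genes, or 55.9%, carried the core. Of all 27025 genes with RefSeq windows, whether or not counted here, 1079 carried it, or 3.99%. The GAS core, searched as TTCNNNGAA, whose letters can overlap those of an ISRE core, was in 9 of 34 members, or 26.5%, and in 9.55% of all genes with windows. A match of letters is not a measured binding site, and a window without one says only that these letters are absent from it.

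Most of the 46 genes had the same order of libraries: lowest in Pcif1fl/fl replicates 1 and 2, higher in all 3 CKO libraries, and highest in Pcif1fl/fl replicate 3. Pcif1fl/fl replicates 1 to 3 had median levels over the members of 31.3, 28.2 and 47.8 CPM, and CKO replicates 1 to 3 had 54.6, 54.9 and 49.7 CPM. Set against the mean of Pcif1fl/fl replicates 1 and 2 gene by gene, the median member was 1.07 higher on the log2 scale in Pcif1fl/fl replicate 3 and 0.83, 0.80 and 0.67 higher in the CKO libraries. Of the 46 genes, 27 had their highest value in Pcif1fl/fl replicate 3 and 33 their lowest in Pcif1fl/fl replicate 2. In 25 members every CKO library lay above Pcif1fl/fl replicates 1 and 2 and below Pcif1fl/fl replicate 3, an order found in 6.09% of all genes tested. The spread within a genotype was unequal, since the median range over the 3 libraries was 1.25 on the log2 scale in Pcif1fl/fl and 0.22 in CKO MSCs, against 0.39 and 0.18 over all genes tested.

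**Figure D1:**
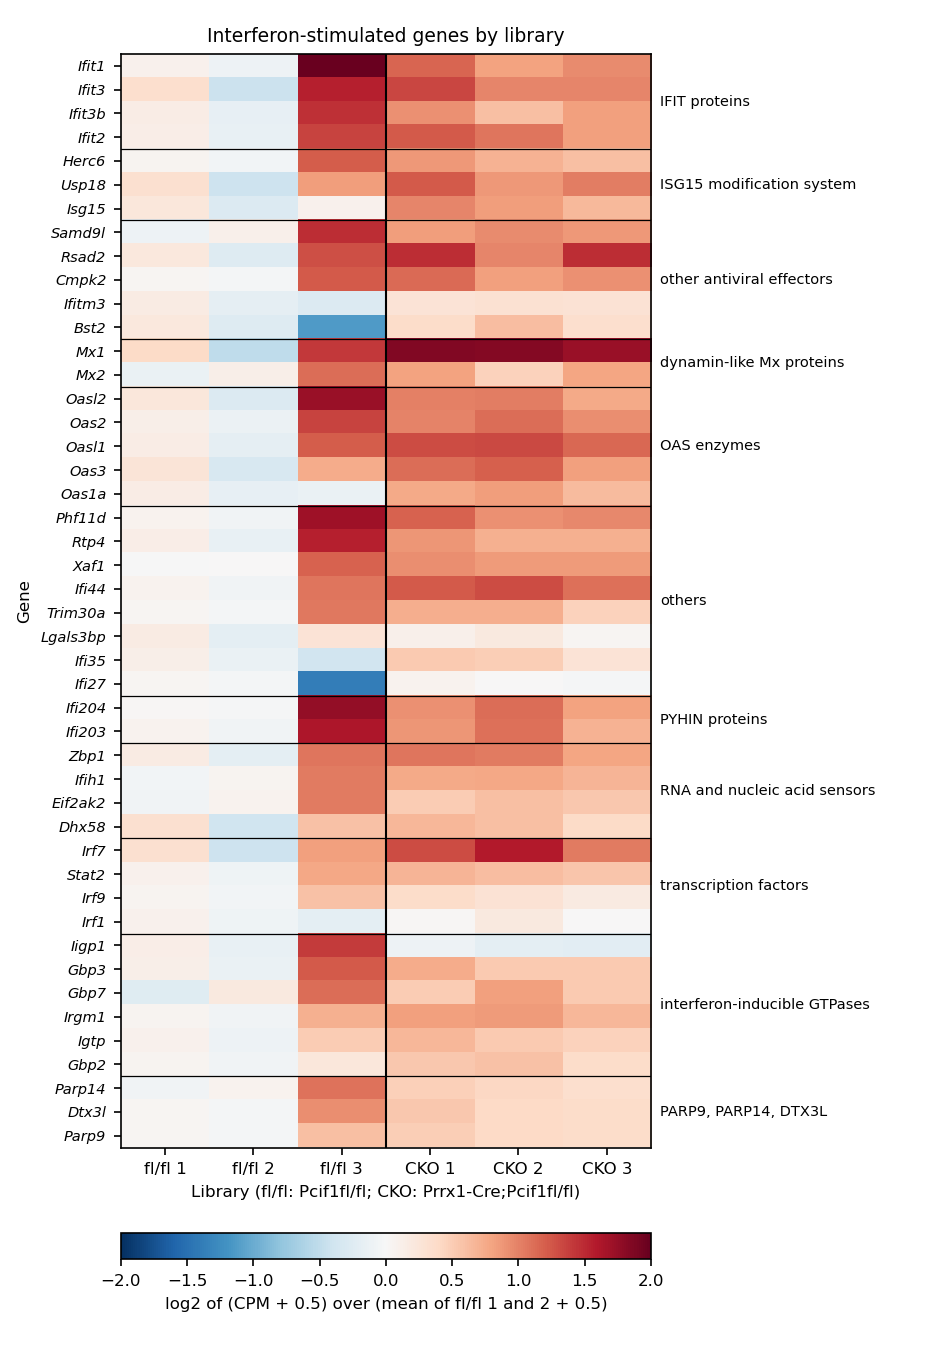
Heat map of the 46 genes (rows, grouped by role) in the 6 libraries (columns, with fl/fl for Pcif1fl/fl), coloured by the log2 ratio of each library's CPM plus 0.5 to the mean of fl/fl 1 and 2 plus 0.5. Most rows are darkest red in fl/fl 3 and paler red in the CKO libraries, while Ifi27 (-1.39) and Bst2 (-1.14) are blue in fl/fl 3.

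In Pcif1fl/fl replicate 3, 27 of 46 members, or 58.7%, were at least 2-fold above the mean of replicates 1 and 2, against 0.910% of all genes tested. At least 2-fold below were 2 members, Ifi27 and Bst2, against 2.91% of all genes. The log2 ratio ran from -1.39 to 1.97, with a median of 1.07 over the members and -0.0024 over all genes, and 39 members were above both other Pcif1fl/fl libraries. Replicates 1 and 2 were closer to each other, since 0 members differed 2-fold between them, although 39 were higher in replicate 1, and the median log2 ratio of replicate 1 to replicate 2 over all 46 was 0.19. This is 1 library against 2 of the same genotype, so it carries no test. The values of the mitochondrial share and of transcript length given here moved with the same library, and their part in the result was not tested.

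The genotype comparison depended on that library. With all 6 libraries, 2 of 46 members, Oas1a and Isg15, were higher in CKO MSCs at an adjusted p under 0.05 (quasi-likelihood test of edgeR, Benjamini-Hochberg adjustment over all genes tested), against 2.88% of all genes, and 0 were lower, against 4.51%. No member was both called and changed 2-fold, a rule that 3.53% of all genes met. At an unadjusted p under 0.05, 12 members were higher, against 9.56% of all genes. DESeq2 called 8 higher (Isg15, Mx1, Oas1a, Oas3, Ifi35, Ifi44, Irf7 and Gbp2), against 3.76% of the genes to which it gave an adjusted p, and 0 lower, against 5.26%. All 3 CKO values lay above all 3 Pcif1fl/fl values in 11 members, against 15.0% of all genes, and below them in 0, against 15.7%. These 11 were the 8 that DESeq2 called together with Usp18, Bst2 and Ifitm3. The log2 fold change was positive in 43 members, with a median of 0.33, where the median over all genes was 0.0017.

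Without Pcif1fl/fl replicate 3, 42 of 46 members were called higher, against 11.1% of the 13905 genes then tested. Called lower were 0, against 10.4%. This library was singled out with the members' values known, and it lay above both other controls in 39 members. Leaving it out thus raises their difference between genotypes. Calls without it, here and below, describe the values and are no independent test. Among the 42, 12 were also at least 2-fold higher, against 1.65% of all genes: Ifit2, Ifit3, Usp18, Rsad2, Mx1, Oas2, Oas3, Oasl1, Ifi44, Irf7, Zbp1 and Phf11d. In the same 42 members each CKO library was above both remaining controls, as in 24.1% of all genes. The members not called were Ifi27, Irf1, Lgals3bp and Iigp1. The median log2 fold change was 0.77, and the median standard error of a member was 0.10, where it had been 0.29 with all libraries. In the same fit 6 of 16 macrophage markers, from Mpeg1 at 0.17 to Cx3cr1 at 1.46 on the log2 scale, and 8 of 12 mesenchymal stromal markers were also called higher, while 1 and 3 of these lists were called lower, and their part in the members' values was not tested. Leaving out any other single library gave between 1 and 4 members called higher, against 1.06% to 2.10% of all genes.

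**Figure D2:**
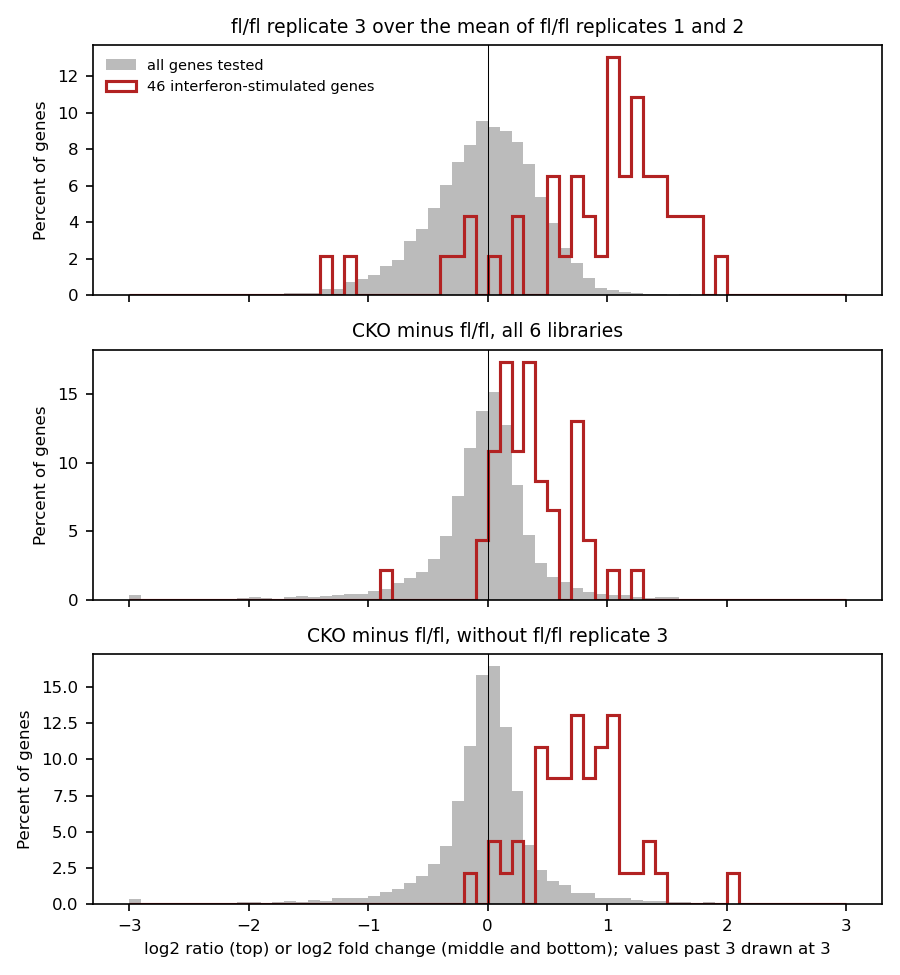
Histograms of the percent of genes (vertical axis) by log2 ratio of Pcif1fl/fl replicate 3 to replicates 1 and 2 (top) and by log2 fold change of CKO minus Pcif1fl/fl MSCs with all libraries (middle) and without Pcif1fl/fl replicate 3 (bottom), with all genes tested in grey and the 46 members outlined in red. The members centre at 1.07, 0.33 and 0.77, and all genes at -0.0024, 0.0017 and 0.00089.

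Oas1a and Isg15 were also the members in which replicate 3 lay between replicates 1 and 2. Oas1a (ENSMUSG00000052776, chromosome 5 from 120896256 to 120907521 on GRCm38) makes 2′-5′-linked oligoadenylates that activate RNase L. Pcif1fl/fl replicates 1 to 3 held 38.0, 30.7 and 31.2 CPM of it, and CKO replicates 1 to 3 held 58.7, 61.8 and 53.8 CPM. Library values below keep this order. The genotypes did not overlap, and the means were 33.3 ± 4.05 and 58.1 ± 4.02 CPM (SD, n = 3 libraries each). The log2 fold change was 0.80 (SE 0.12, adjusted p = 0.0048, edgeR quasi-likelihood test, Benjamini-Hochberg adjustment), and 0.76 without replicate 3, with adjusted p between 3.5e-07 and 0.035 over the alternatives. Of the 150-base stretches of its transcripts, 32.4% also occur in Oas1g, so its count may include reads of that gene.

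Isg15 (ENSMUSG00000035692, chromosome 4 from 156199424 to 156200818) encodes a ubiquitin-like protein that is attached to other proteins and is also secreted. It was at 42.6, 29.8 and 38.3 CPM in Pcif1fl/fl and 72.1, 65.4 and 57.0 CPM in CKO libraries. Every CKO value was above every control, with means of 64.8 ± 7.54 and 36.9 ± 6.53 CPM (SD, n = 3). The log2 fold change was 0.81 (SE 0.15, adjusted p = 0.015, edgeR quasi-likelihood test, Benjamini-Hochberg adjustment), and the adjusted p lay between 5.5e-05 and 0.076 over the alternatives. The other genes of the ISG15 system are Usp18, the protease that removes ISG15 and dampens receptor signaling, and Herc6, the main ISG15 ligase of the mouse. Their log2 fold changes were 0.72 and 0.21 with all libraries, neither passing the test, and 1.09 and 0.76 without Pcif1fl/fl replicate 3, both passing it.

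The 4 IFIT genes, neighbours on chromosome 19 whose proteins bind viral RNA, were all at least 2-fold higher in Pcif1fl/fl replicate 3 and all placed the CKO libraries in between. Ifit1 (ENSMUSG00000034459, chromosome 19 from 34640871 to 34650009), whose protein binds RNA caps that lack ribose methylation, was at 30.3, 26.7 and 113 CPM in Pcif1fl/fl and 64.3, 50.3 and 55.6 CPM in CKO libraries. Replicate 3 was 3.97-fold above replicates 1 and 2, the largest ratio of the 46. The log2 fold change between genotypes was -0.0018 (SE 0.49) with all libraries and 1.00 (SE 0.10) without replicate 3. The sign of Ifit1 with all libraries also turned with the scaling, as RLE size factors gave 0.00040. Ifit3 was at 21.1, 12.2 and 49.9 CPM in Pcif1fl/fl and 42.7, 33.1 and 33.4 CPM in CKO libraries, again with replicate 3 highest, although 18.5% of its stretches also occur in Ifit3b. Over the 4 genes the log2 fold change without replicate 3 ran from 0.85 to 1.14, and all 4 were then called higher.

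Of the 5 OAS family genes, 3 were at least 2-fold higher in Pcif1fl/fl replicate 3 and all 5 were called higher without it. Oasl2, an OAS-like protein with ubiquitin-like domains, was at 90.5, 63.7 and 255 CPM in Pcif1fl/fl and 156, 158 and 130 CPM in CKO libraries. Replicate 3 was 3.31-fold above the other controls, and the log2 fold change was 0.12 with it and 0.95 without it. Its printed window held no ISRE core. Oas2, Oas3 and Oasl1, which restrains translation of Irf7, had log2 fold changes of 0.42, 0.76 and 0.76 with all libraries and 1.03, 1.06 and 1.34 without replicate 3. The log2 ratio of replicate 3 to the other controls in this family ran from -0.13 in Oas1a to 1.72 in Oasl2.

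Both Mx genes, which belong to a family of dynamin-like GTPases and are known to carry disrupted alleles in C57BL/6 mice, were at least 2-fold higher in replicate 3. Mx1, chosen after its values were seen, was at 3.75, 1.80 and 8.28 CPM in Pcif1fl/fl and 11.4, 11.1 and 10.4 CPM in CKO libraries, without overlap. It had the largest log2 fold change of the members, 1.24 (SE 0.44, adjusted p = 0.14 in the edgeR quasi-likelihood test), and 2.01 (SE 0.22) without replicate 3. Its level was low, and per kilobase of exons merged over all transcripts it averaged 2.06 CPM, close to the lowest, Mx2 at 1.85. Mx2 had log2 fold changes of 0.23 and, without replicate 3, 0.75.

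**Figure D3:**
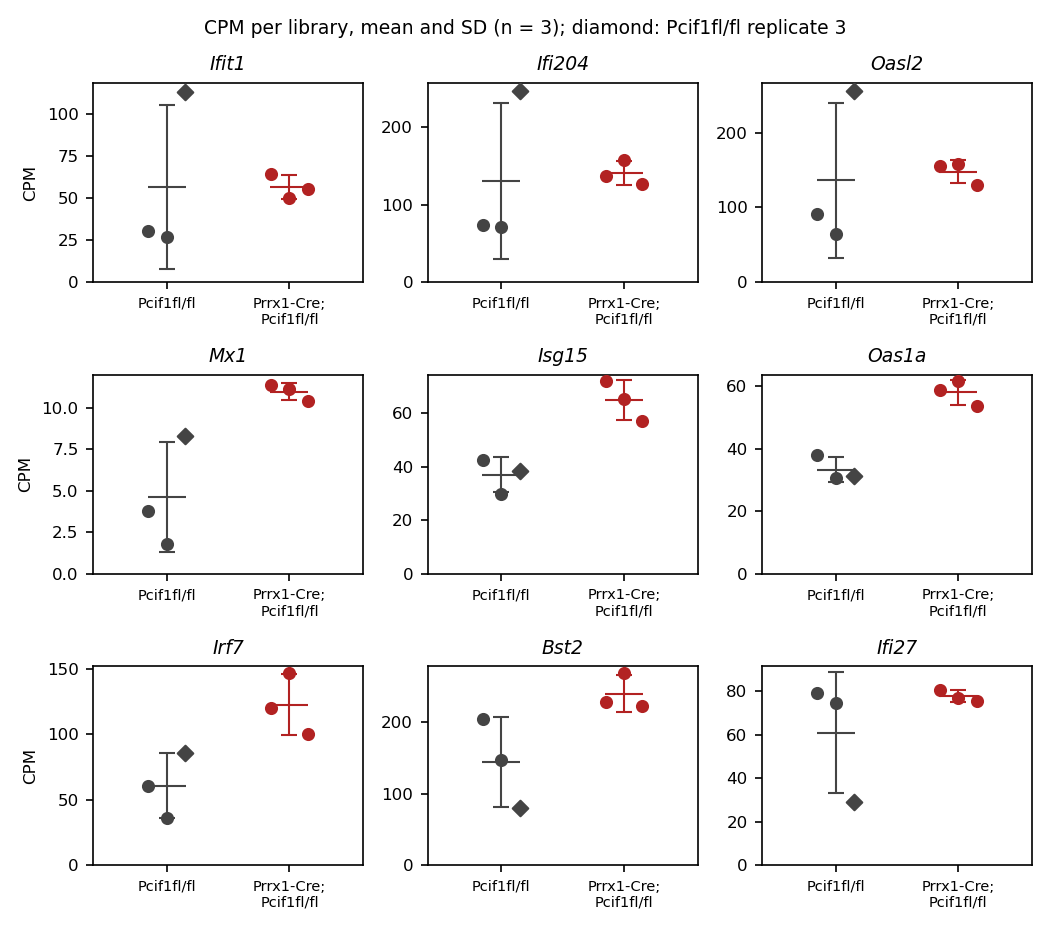
CPM (vertical axis, from 0) of 9 members in each library of Pcif1fl/fl (grey) and CKO (red) MSCs, with mean and SD over 3 libraries and a diamond for Pcif1fl/fl replicate 3. The diamond is far above all other points for Ifit1 (113), Ifi204 (246) and Oasl2 (255), among the controls for Isg15 (38.3) and Oas1a (31.2), and lowest for Bst2 (79.9) and Ifi27 (29.0).

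Among the other antiviral effectors, 3 of 5 were at least 2-fold higher in replicate 3, 1 was 2-fold lower, and all 5 were called higher without it. Samd9l, which restrains translation and cell growth, was at 53.1, 61.3 and 161 CPM in Pcif1fl/fl and 102, 111 and 104 CPM in CKO libraries, which lay between the controls. Rsad2, or viperin, makes a chain-terminating nucleotide, and its neighbour on chromosome 12, Cmpk2, is a nucleotide kinase. They gave log2 ratios of 1.28 and 1.23 in replicate 3. Their log2 fold changes were 0.79 and 0.43 with all libraries, neither called, and 1.41 and 1.00 without replicate 3.

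Bst2 (ENSMUSG00000046718, chromosome 8 from 71534255 to 71537456), or tetherin, which holds budding virus particles at the cell surface, ran the other way in replicate 3. It was at 205, 148 and 79.9 CPM in Pcif1fl/fl and 228, 270 and 224 CPM in CKO libraries. The genotypes did not overlap, yet the log2 fold change of 0.74 (SE 0.29) had an adjusted p of 0.18 in the edgeR quasi-likelihood test, and it was 0.45 (SE 0.11) and called without replicate 3. Ifitm3, which blocks virus entry from endosomes, had the highest level per kilobase of the members at 755 CPM. Its values were 530, 416 and 392 CPM in Pcif1fl/fl and 574, 585 and 575 CPM in CKO libraries, again with replicate 3 lowest and no overlap. Its log2 fold change was 0.37 with all libraries (adjusted p = 0.11, edgeR quasi-likelihood test) and 0.29 without replicate 3.

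The PYHIN proteins bind DNA, and Ifi204 takes part in sensing foreign DNA. Ifi204 was at 73.8, 71.0 and 246 CPM in Pcif1fl/fl and 137, 157 and 127 CPM in CKO libraries, and 10.8% of its stretches also occur in Ifi211. Ifi203 was at 30.3, 27.6 and 90.0 CPM in Pcif1fl/fl and 53.9, 62.5 and 47.3 CPM in CKO libraries. In both genes replicate 3 stood over 3-fold above replicates 1 and 2, at 3.40 and 3.11, and every CKO library fell in the gap. The log2 fold changes were 0.11 and 0.14 with all libraries and 0.96 and 0.92 without replicate 3.

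A further 4 members are sensors of nucleic acids outside the OAS and PYHIN families. Ifih1 (MDA5) senses long double-stranded RNA, Dhx58 (LGP2) modulates it, Eif2ak2 (PKR) stops translation on double-stranded RNA, and Zbp1 binds Z-form nucleic acids and triggers cell death. Their log2 ratios in replicate 3 ran from 0.59 in Dhx58 to 1.06 in Zbp1, with 3 of 4 at least 2-fold higher. All 4 were called higher without replicate 3, by 0.56 in Eif2ak2 to 1.00 in Zbp1 on the log2 scale, and 0 were called with it.

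Of the 4 transcription factors, none reached 2-fold in replicate 3. Irf7, the factor that amplifies transcription of type I interferon genes and given here after its values were seen, was at 60.4, 36.1 and 85.5 CPM in Pcif1fl/fl and 120, 147 and 100 CPM in CKO libraries, without overlap. Its log2 fold change was 1.01 (SE 0.28, adjusted p = 0.070 in the edgeR quasi-likelihood test) and 1.35 (SE 0.17) without replicate 3, and DESeq2 called it with all libraries (adjusted p = 0.0035, in a range of 3.2e-05 to 0.24 over the alternatives). Stat2 and Irf9, which act together in ISGF3, had log2 fold changes of 0.31 and 0.063 with all libraries and 0.63 and 0.29 without replicate 3. Irf1, induced mainly by interferon-γ, was called in neither fit, at 0.15 and 0.087.

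The 6 interferon-inducible GTPases, which act on the vacuoles of intracellular pathogens, included the member that went against the others. Iigp1, chosen after its values were seen, was at 35.0, 28.7 and 84.7 CPM in Pcif1fl/fl and 29.7, 27.8 and 27.4 CPM in CKO libraries. Replicate 3 was 2.66-fold above the other controls as in most members, but the CKO libraries lay beside replicates 1 and 2, and the log2 fold change was -0.81 (SE 0.36) with replicate 3 and -0.16 (SE 0.096) without it, neither called. Gbp3 and Gbp7 were also at least 2-fold higher in replicate 3, while Gbp2, Igtp and Irgm1 were 1.18-, 1.43- and 1.64-fold higher. All 5 other than Iigp1 were called higher without replicate 3, by 0.51 to 0.79 on the log2 scale.

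Parp14, an ADP-ribosyltransferase, and the partners Parp9 and Dtx3l, which form a ubiquitin ligase, lie side by side on chromosome 16. They had small differences between genotypes, from -0.047 to 0.19 on the log2 scale with all libraries and from 0.41 to 0.45 without replicate 3, when all 3 were called higher. Parp14 was 2.12-fold higher in replicate 3. Parp9 and Dtx3l overlap on opposite strands over 9.40% and 8% of their exonic bases, and how the counting used strand is not given in the sources used here.

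The remaining 8 genes have varied roles. Rtp4, a receptor-trafficking protein, was at 43.5, 35.7 and 118 CPM in Pcif1fl/fl and 73.3, 65.0 and 65.2 CPM in CKO libraries. Phf11d, a PHD-finger protein, was at 13.7, 12.4 and 43.5 CPM in Pcif1fl/fl and 30.4, 25.0 and 25.8 CPM in CKO libraries. Trim30a, a TRIM protein that restrains Toll-like receptor signaling, was at 74.0, 70.7 and 150 CPM in Pcif1fl/fl and 120, 120 and 99.8 CPM in CKO libraries. All of these had CKO libraries between the controls, with log2 fold changes of 0.048, 0.22 and 0.21, and of 0.78, 1.06 and 0.65 without replicate 3. Xaf1, which promotes apoptosis, shared this order, and Ifi44 had no control as high as any CKO library, at 0.77 and 1.23 without replicate 3.

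Ifi27, a small hydrophobic protein of mitochondria and other membranes, was at 79.1, 74.6 and 29.0 CPM in Pcif1fl/fl and 80.7, 77.0 and 75.6 CPM in CKO libraries. Only replicate 3 stood away from the other 5 libraries, at 0.378 of the mean of replicates 1 and 2, and a fit that leaves it out gave a log2 fold change of 0.021 (SE 0.069). Lgals3bp, a secreted glycoprotein and the second most abundant member per kilobase at 229 CPM, was at 682, 529 and 736 CPM in Pcif1fl/fl and 648, 696 and 625 CPM in CKO libraries. These groups overlapped, with log2 fold changes of 0.016 and 0.12. Ifi35, a short member, was lower in replicate 3 than in any other library, and its log2 fold change was 0.57 (SE 0.15, adjusted p = 0.065 in the edgeR quasi-likelihood test).

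Most members that were lower in replicate 3 had short transcripts. Replicate 3 was below all 5 other libraries in Ifi27, Ifi35, Irf1, Bst2 and Ifitm3, and 4 of these, all but Irf1, are among the 9 members with a transcript under 2000 bases. Over those 9 the median log2 ratio of replicate 3 to the other controls was -0.13, with 2 at least 2-fold higher, and over the 37 longer members it was 1.11, with 25 at least 2-fold higher. Over all genes tested the medians were -0.26 for 2955 short and 0.050 for 10775 longer genes. After correcting each library for GC content and length, the median log2 ratio over the members was 0.89, with 21 at least 2-fold higher and 1 lower, and it was 0.12 for the short and 0.94 for the longer members.

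The values were also read by sequence feature. The 19 members with an ISRE core had a median log2 ratio of 1.04 in replicate 3, with 10 at least 2-fold higher, and the 15 with windows but no core had 1.18, with 9. Since PCIF1 acts on transcripts that begin with adenosine, the first base of the RefSeq start was read, with A counted where any start of a gene had it. It was A in 13 of 34 members, or 38.2%, and in 39.2% of all genes with RefSeq windows. The median log2 fold change was 0.46 in these 13 and 0.22 in the other 21 with all libraries, and 0.76 and 0.79 without replicate 3. The differences between these medians were not tested.

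The upstream pathway was measured by lists of genes outside the 46. For comparison with each list, 2.88% of all genes were called higher and 4.51% lower with all libraries, and 11.1% and 10.4% without replicate 3. In replicate 3, 0.910% of all genes were at least 2-fold higher and 2.91% lower. Interferon ligand genes were nearly absent: 4 of 21 symbols were in the table, none passed the filter, and their summed counts were 0 to 10 per library. Of 6 receptor genes 0 were called with all libraries in the edgeR quasi-likelihood test, and 0 higher and 1 lower without replicate 3. The subunits of the type I receptor were level across libraries, with Ifnar1 at 126, 132 and 145 CPM in Pcif1fl/fl and 124, 136 and 118 CPM in CKO libraries. Ifnar2 was at 77.1, 72.4 and 72.7 CPM in Pcif1fl/fl and 65.7, 75.1 and 65.1 CPM in CKO libraries.

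Of the interferon-γ receptor, Ifngr1 was at 209, 199 and 186 CPM in Pcif1fl/fl and 150, 174 and 143 CPM in CKO libraries, with no overlap. Its log2 fold change was -0.35 (adjusted p = 0.090, edgeR quasi-likelihood test), and it was the receptor called lower without replicate 3. Ifngr2 was at 133, 118 and 143 CPM in Pcif1fl/fl and 135, 138 and 137 CPM in CKO libraries. Among 11 JAK-STAT and IRF genes outside the members, 0 were called with all libraries, 0 were higher and 1 lower without replicate 3, and 0 reached 2-fold in replicate 3.

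Of 18 sensors and adaptors outside the members, 1 was called lower with all libraries, Samhd1, which degrades deoxynucleotides (log2 fold change -0.75, adjusted p = 0.0080, edgeR quasi-likelihood test), and 0 higher. Without replicate 3 they gave 6 higher and 2 lower, and Ddx58 (RIG-I), Tlr3 and Tlr8, named after their values were seen, were at least 2-fold higher in replicate 3. Of 9 negative regulators 1 was higher, Socs2, a suppressor of cytokine signaling (log2 fold change 0.90), and 0 were lower with all libraries, and 2 were higher and 1 lower without replicate 3.

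Among 62 further interferon-stimulated genes tested, 15 had every CKO library between Pcif1fl/fl replicates 1 and 2 below and replicate 3 above, against 6.09% of all genes. Of the 62, 6 were called higher and 0 lower with all libraries, against 2.88% and 4.51% of all genes. Without replicate 3, 31 were called higher and 0 lower, against 11.1% and 10.4%. In replicate 3, 10 were at least 2-fold higher and 2 lower, against 0.910% and 2.91% of all genes, with a median log2 ratio of 0.54. The called genes with the smallest p were Ms4a4c, Tgtp1, Slfn2 and Ifi27l2a, with log2 fold changes of 1.41, 1.75, 0.45 and 1.47. Ifi213, a PYHIN gene named after its values were seen, had the largest ratio in replicate 3, at 2.37 on the log2 scale, from 4.50, 2.13 and 19.3 CPM in Pcif1fl/fl libraries, and CKO libraries held 22.2, 24.8 and 20.8 CPM.

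**Figure D4:**
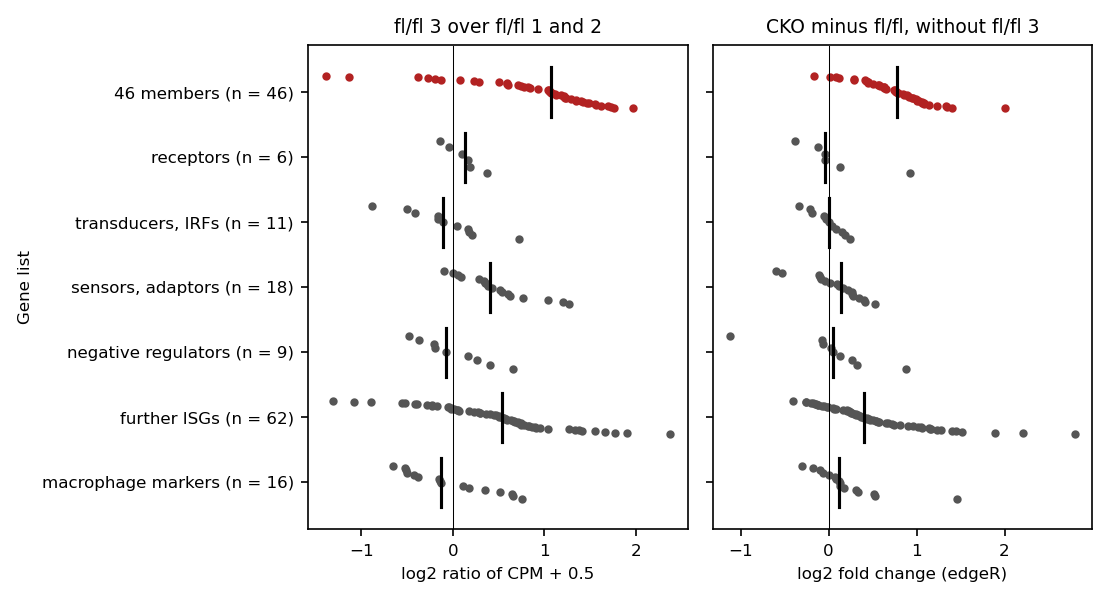
Each point is 1 gene, placed by its log2 ratio in Pcif1fl/fl replicate 3 over replicates 1 and 2 (left) or its log2 fold change between CKO and Pcif1fl/fl MSCs without replicate 3 (right), with a bar at each list's median. The 46 members have the highest medians of the 7 lists drawn (1.07 and 0.77), further interferon-stimulated genes are at 0.54 and 0.40, and receptors are at 0.13 and -0.042.

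Markers of other cell types were read beside these values. Over all genes, 2.88% were called higher and 4.51% lower with all libraries, and 11.1% and 10.4% without replicate 3. Of the 16 macrophage markers 1, Cx3cr1, was called higher with all libraries and 0 were lower, and 0 reached 2-fold in replicate 3. Without replicate 3, 6 of 16 were called higher and 1, Csf1r, lower, where Csf1r and Mpeg1 were named after their values were seen. Neutrophil markers summed to 1.00 to 1.14 CPM in Pcif1fl/fl and 1.44 to 1.98 CPM in CKO libraries, with 1 of 2 tested called higher in either fit, and erythroid markers to at most 0.721 CPM. Lymphoid and plasmacytoid dendritic markers summed to 156 to 221 CPM, nearly all of it Tcf4, while Siglech was at 0 to 0.220 CPM, and 0 of 2 tested were called in either fit. Endothelial markers summed to 79.5 to 123 CPM in Pcif1fl/fl, highest in replicate 3, and 56.3 to 63.6 CPM in CKO libraries, with 0 of 8 called higher and 1 lower, and 1 and 2 without replicate 3. Mesenchymal stromal markers summed to 11579 to 15011 CPM in Pcif1fl/fl, lowest in replicate 3, and 18584 to 19717 CPM in CKO libraries. Of these, 5 of 12 were called higher and 2 lower, and 8 and 3 without replicate 3. Col1a1 (3483 to 6355 CPM) and Col1a2 (3224 to 6497 CPM), named after their values were seen, made up most of this sum in every library. Gene by gene, the log2 ratio of replicate 3 to the other controls ran from -0.93 to 0.82, with a median of 0.027. Of 9 osteoblast markers 1 was called higher and 4 lower, and of 8 adipocyte markers 0 higher and 5 lower, and without replicate 3 these were 2 and 5, and 2 and 6. Some calls are counted in more than 1 list. Col1a1, called higher, is on the stromal and osteoblast lists, and Eng, called lower, is on the stromal and endothelial lists. The part of cell composition in the levels of the 46 genes was not tested.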

How the data were processed

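Poly(A) RNA of MSCs was sequenced as paired reads of 150 bases; the authors mapped reads to mm10 with HISAT2 and deposited raw, unnormalized counts per gene. Which tool and annotation counted the reads, and with what strand setting, is not given in the sources used here. The 20163 rows hold 92 repeats of an Ensembl ID, so each of 20071 IDs was used once, and 0 columns were left unmapped. Groups came from the sample labels, which list 3 libraries per genotype where the design text speaks of duplicates.

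Counts were analysed with edgeR 4.0.16 in R 4.3.3 (filterByExpr, TMM, glmQLFit and glmQLFTest, no covariate), with Benjamini-Hochberg adjustment over all genes tested. Called genes had an adjusted p under 0.05. The standard error is the log2 fold change over the square root of F. Ratios of Pcif1fl/fl replicate 3 to the mean of replicates 1 and 2 used CPM plus 0.5 and carry no test. Depth was 20258209 to 28227696 counts, and duplicates from PCR could not be told from separate molecules. Positions, transcript length and shared stretches of 150 bases came from GENCODE M21, which held 20059 of the IDs, and start windows from RefSeq on GRCm38.p6.

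The 46 members and all lists (interferon ligands, receptors, transducers, sensors, negative regulators and further interferon-stimulated genes, and markers of macrophages, neutrophils, lymphoid and plasmacytoid dendritic cells, endothelium, erythroid cells, mesenchymal stroma, osteoblasts and adipocytes) were written by hand with earlier results of these data known, so no set test was run. Values in every library are given for called members, the 8 members with the highest CPM per kilobase, the 8 with the largest ratio in replicate 3, and Ifnar1, Ifnar2, Ifngr1 and Ifngr2. Levels per kilobase used the exons of a gene merged over its transcripts. From each other list at most 4 called genes were named. The rule named 1 further gene, which is not reported here.

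The alternatives were DESeq2 1.42.0, RLE or total-count scaling, no filter, a mean of 10 counts, a pseudocount of 2, the replicate number as a block and leaving out each library. Correcting each library for GC content and length with splines (5 degrees of freedom) was chosen after seeing the data. On simulated data holding 200 genes shifted by 2 log2 units, edgeR called 200 of them (100%) among 13701 tested with 12 false calls. DESeq2 called 197 of them (98.5%) among 19566 with 18 false calls. The median log2 fold change of the members was 0.33 with all libraries, and the recovery of shifts of that size was not tested.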

Additional observations from a re-analysis of the deposited data

How the results depend on the processing

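The count of members called higher, 2 with all libraries, was 8 with DESeq2, 5 with no filter and 4 with GC content and length corrected, where 3.76%, 2.20% and 4.22% of all genes were called higher, and 1 to 42 when each library was left out in turn (1.06% to 11.1% of all genes), with 42 only without Pcif1fl/fl replicate 3, 4 without Pcif1fl/fl replicate 1 and 1 without CKO replicate 1 or 2. The count also at least 2-fold changed, 0 against 3.53% of all genes, was 2 with DESeq2, 1 with no filter and 0 to 12 over the left-out libraries. The 12 came without Pcif1fl/fl replicate 3, where 1.65% of all genes were called and at least 2-fold higher. For the other settings the share of all genes at this rule was not computed. The median log2 fold change of 0.33 ran from 0.14 to 0.77, and the 11 members without overlap from 12 to 42, over the left-out libraries. Fewer libraries overlap less in any gene. Over all genes, CKO values were higher without overlap in 15.0% and lower in 15.7% with all libraries. Against Pcif1fl/fl replicates 1 and 2 alone they were higher in 24.1%. Genes of the pathway lists called higher, 7 in all, were 11 with DESeq2 and 11 with the GC and length correction, and 3 to 39 over the left-out libraries. Those called lower, 1, were 2 with DESeq2, total counts, no filter or the GC and length correction, and 0 to 5 over the left-out libraries. The 2 members at least 2-fold lower in Pcif1fl/fl replicate 3 became 1 with the GC and length correction and 1 to 2 when either other control was left out, and the median log2 ratio of 1.07 became 0.89 with that correction. RLE scaling, total counts and a mean of 10 counts left the number of members called higher at 2.

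Log2 fold changes near 0 changed sign, always uncalled with all libraries. That of Ifit1 became 0.0032 with DESeq2, 0.00040 with RLE scaling, 0.33 with the replicate block and 0.014 with the GC and length correction, that of Parp14 became 0.053 with the block and 0.048 with the correction, that of Rtp4 became -0.0045 with the correction, and that of Lgals3bp became -0.0033 with total counts. Over the left-out libraries, the log2 fold change ran from -0.34 to 1.00 for Ifit1, from -0.18 to 0.85 for Ifit3b, from -0.0064 to 0.75 for Mx2, from -0.22 to 0.95 for Oasl2, from -0.14 to 0.92 for Ifi203, from -0.19 to 0.96 for Ifi204, from -0.059 to 0.29 for Irf9, from -0.18 to 0.63 for Gbp3, from -0.11 to 0.63 for Gbp7, from -0.25 to 0.41 for Parp14, from -0.11 to 0.45 for Dtx3l, from -0.25 to 0.78 for Rtp4, from -0.021 to 0.76 for Herc6, from -0.079 to 0.56 for Eif2ak2, from -0.068 to 0.89 for Samd9l, from -0.083 to 1.06 for Phf11d, from -0.11 to 0.12 for Lgals3bp and from -0.0088 to 0.13 for Ifngr2. The cause was not tested.

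The deviations of libraries with the same replicate number from their genotype mean correlated at 0.064, -0.050 and -0.0016 across genes. Those of libraries with unlike numbers correlated at -0.050 to 0.048. With so few libraries, this shows no pairing by number but cannot exclude one. With the replicate block 2 members were called higher, against 1.94% of all genes, and 0 lower. Depth was at least 20258209 counts per library and 49 counts per member and library.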
